A study of Mus musculus with 8 samples.

Results

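*Ccdc42* and 9 other genes of the sperm head-tail connection were followed in bulk RNA-seq of testes that had lost *Spdya* at the pachytene stage of meiosis. The 10 genes, of 54532 in the deposited table, were *Ccdc42*, *Ccdc38*, *Odf1*, *Odf2*, *Spata6*, *Sun5*, *Spag4*, *Pmfbp1*, *Hook1* and *Oaz3*, taken by gene symbol. *Ccdc42* was chosen by its call in the very contrast described here, and the other 9 were selected on their known roles with results of these data in view, so the differences between genotypes are given for all 10 genes as a description without a test.

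The coupling apparatus, or connecting piece, is the structure that fixes the flagellum to the base of the sperm nucleus. It is assembled in elongating spermatids, after meiosis, from centriolar and coiled-coil proteins, nuclear envelope proteins of the SUN family and the anchors of the outer dense fibres that run along the tail. Many of its parts reach the neck and the tail by way of the manchette, a temporary skirt of microtubules around the spermatid nucleus, and males that lack single members make headless or tailless sperm. Several of the genes are already transcribed in spermatocytes, well before their products are used.

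The samples were 4 libraries from *Sync-Spdya* fl/fl testes (control) and 4 from *Sync-Spdya* cKO testes. Both groups were C57BL/6J males near the end of the third postnatal week that carried the floxed *Spdya* allele on both chromosomes, were synchronized with an inhibitor of retinoic acid synthesis followed by retinoic acid (RA), received tamoxifen at RA7.5 and RA8.5 per the labels (days after RA), and were collected at RA11.5, in mid-late pachynema. The cKO males carried in addition *Ddx4-CreERT2*, a tamoxifen-inducible Cre of germ cells that removes exon 2 of *Spdya*, so Sertoli, Leydig and other somatic cells in these whole testes were not targeted. Each genotype was represented by 4 mice, as the study's supplement states, so the errors below measure the spread between mice.

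The authors deposited FPKM, fragments scaled by the length of each gene and by a factor for each library, and 13978342 to 19583091 fragments per library lay on genes. The factor did not follow these fragment totals exactly, and how it was set is not given in the sources used here. *Spdya* itself had 20.8, 21.0, 23.8 and 19.7 FPKM in control and 30.5, 22.2, 26.1 and 17.7 FPKM in cKO libraries, a value summed over the whole gene that does not check the loss of exon 2. Control replicate 1 stood apart in its share of fragments on mitochondrial genes, 0.464% against 2.20 to 3.74% in the other libraries, and values without it are given for the members that had enough fragments for a fold change.

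The libraries were read against stage and cell type markers. Of 13 pachytene markers in the table, 10 had a mean above 1 FPKM in both genotypes, and the sum of the list was 1122 to 1691 FPKM in control and 897 to 1396 FPKM in cKO libraries. The stage in which the coupling apparatus is built was almost absent: 7 of 8 elongating spermatid markers stayed under 1 FPKM in every library, with the protamine *Prm1* at a mean of 0.355 FPKM in control and 0.241 FPKM in cKO libraries. Of 13 round spermatid markers, 9 had a mean under 1 FPKM and *Lyzl1* was at 0 throughout. Of the other lists, the 6 macrophage markers summed to 14.3 to 25.5 FPKM in control and 27.4 to 34.6 FPKM in cKO libraries, whereas the Sertoli cell sum overlapped between genotypes (1545 to 2608 and 2015 to 2362 FPKM). The sums also overlapped for spermatogonia (215 to 279 and 267 to 277 FPKM), Leydig cells (35.9 to 57.6 and 51.6 to 72.2 FPKM), peritubular cells (44.8 to 75.0 and 74.0 to 104 FPKM) and endothelial cells (6.70 to 12.0 and 11.8 to 15.1 FPKM). A sum can hide single markers: of the 10 for spermatogonia, 2 had a lower cKO mean. One of these was *Stra8*, at 10.8 FPKM in control and 3.40 FPKM in cKO libraries (log2 fold change −1.46). In whole testis RNA, fewer cells of a type and less RNA per cell cannot be told apart.

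*Ccdc42* (ENSMUSG00000045915) lies on the plus strand of chromosome 11 of GRCm38, from 68587021 to 68597966, and its longest coding transcript in GENCODE vM21 has 7 exons. Because it was the gene of the group with the largest difference, the bases just before its start are shown, from the RefSeq promoter table of GRCm38.p6 (chr11:68586787-68587020, plus strand, 5′ to 3′), without the bases that GENCODE places in the transcript. The capitals mark an inverted pair of short sites.

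*Ccdc42* upstream: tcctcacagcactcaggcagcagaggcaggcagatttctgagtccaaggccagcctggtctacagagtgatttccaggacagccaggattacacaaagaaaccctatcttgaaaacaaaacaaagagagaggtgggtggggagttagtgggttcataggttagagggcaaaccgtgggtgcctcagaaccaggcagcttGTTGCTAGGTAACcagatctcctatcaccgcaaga

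The marked pair fits the pattern GTTNCNNNGNAAC, which reads the same on both strands and resembles the X-box bound by RFX factors, regulators of cilium genes. It begins 51 bases before the RefSeq start and was searched for after this sequence had been seen. The pattern was found in 0.836% of 32536 promoters of 250 bases and in none of the other windows of the 7 members that the table held (*Odf1*, *Pmfbp1* and *Oaz3* were not matched). The other motifs searched on both strands were TGACGTCA (the full cyclic AMP response element, in 1.56% of promoters), its shorter core TGACG (17.9%, contained in the full element), one side of the X-box, GTTGCC (10.3%), the MYB core CAGTT (39.2%) and TATAAA (12.3%). None of these 5 was in the *Ccdc42* window. *Spag4* held the full element 37 bases before its RefSeq start, *Odf2* and *Spata6* held its shorter core and the MYB core, *Sun5* held the MYB core, and *Ccdc38* and *Hook1* held none. A match is a string of letters and not a measured binding site. The window also overlaps an exon of *Ccdc42os*, a long noncoding RNA on the opposite strand, which had 0.0914 to 0.527 FPKM in control and 0.0882 to 0.489 FPKM in cKO libraries.

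Across the control libraries the 10 genes spanned levels from abundant to barely detected. FPKM is scaled by gene length, so the levels can be set in order: *Odf2* was highest at 35.5 ± 4.38 FPKM (mean ± SD, n = 4), above *Hook1* at 21.8 ± 2.72 and *Spata6* at 17.8 ± 1.79 FPKM, and the last pair overlapped between libraries. *Ccdc42* came next at 9.20 ± 1.29 FPKM, below every control value of *Spata6* and 3.30-fold above *Ccdc38* at 2.79 ± 0.771 FPKM. *Ccdc42* was thus of middling abundance, with 33.3% of the 12141 protein-coding genes that passed the filter (a mean FPKM above 1 in both genotypes) lying below it, against 87.4% for *Odf2*. The other 5 genes lay below 1 FPKM in every control library, and neighbours among *Oaz3*, *Spag4*, *Odf1*, *Sun5* and *Pmfbp1* overlapped. These were the genes that did not pass the filter, which leaves 5 of the 10 in the fit across all genes.

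**Figure D1:**
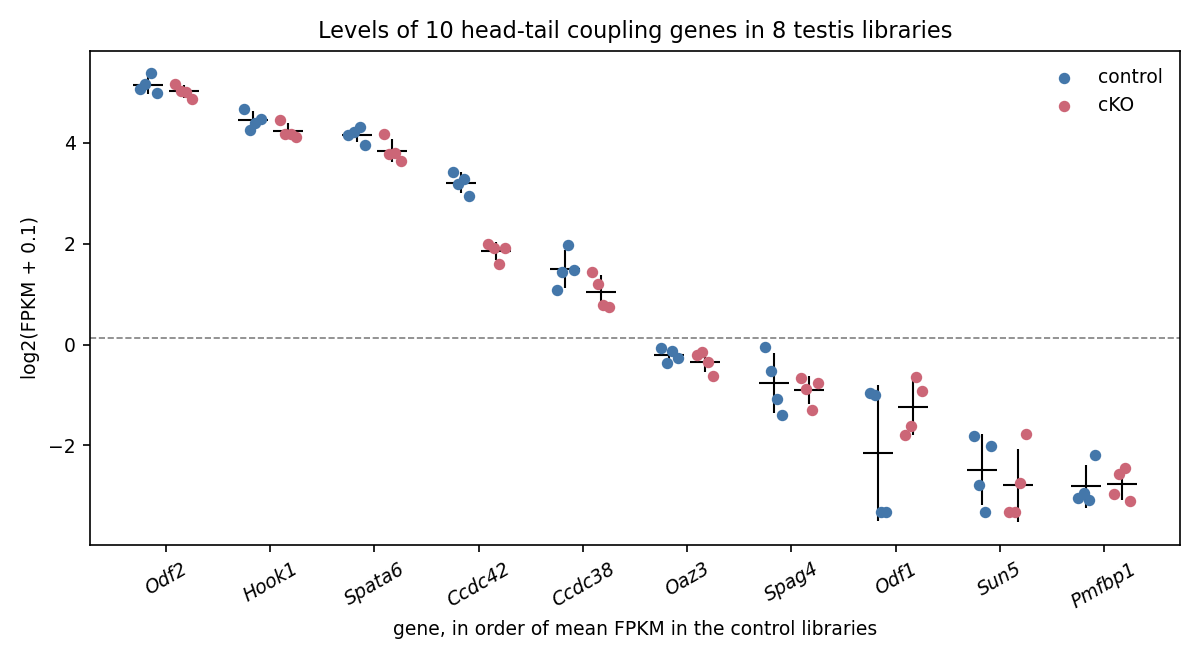
Level of each of the 10 genes in every library as log2(FPKM + 0.1), ordered by the control mean. Points are single libraries (4 control in blue, 4 cKO in red), bars are the mean and SD, the dashed line marks 1 FPKM, and *Ccdc42* is the gene among those above the line whose groups do not overlap (7.57 to 10.7 against 2.92 to 3.90 FPKM).

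*Ccdc42* encodes a coiled-coil protein found at the manchette, the connecting piece and the sperm tail, and mouse males without it are infertile. It had 10.7, 8.96, 9.62 and 7.57 FPKM in control replicates 1 to 4 and 3.90, 3.67, 2.92 and 3.65 FPKM in cKO replicates 1 to 4. Every cKO library lay below every control library, and within each genotype the values kept to a narrow band. The means were 9.20 ± 1.29 and 3.54 ± 0.425 FPKM, a 2.60-fold higher level in control testes. On the log2(FPKM + 0.1) scale, which understates changes of low values, the log2 fold change (cKO minus control) was −1.35 (standard error 0.136), and it was −1.28 without control replicate 1.

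These values rest on 207, 241, 223 and 184 fragments in control and 112, 87, 73 and 92 fragments in cKO libraries. The exact 95% Poisson intervals of single libraries were separate in 16 of 16 pairs of a control with a cKO library, the lowest control limit being 6.52 FPKM and the highest cKO limit 4.69 FPKM. Such intervals, and the floors of 3 fragments used below, cover counting error only. No other gene of the table overlaps *Ccdc42*, so its fragments have no antisense partner within the gene.

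In the fit across 12141 genes, where a call needed more than a 2-fold difference and a limma adjusted p (Benjamini-Hochberg) below 0.05, 2 genes were called lower (0.0165% of those tested) and 0 higher. *Ccdc42* was one of the 2, and this is the call by which it was chosen, so nothing is read from it. The other was *5330417C22Rik*, with means of 9.88 and 3.80 FPKM, named after its values were seen. At an unadjusted p below 0.05, 607 genes were lower and 715 higher, together 10.9% of those tested. By size alone the log2 fold change of *Ccdc42* was the seventh lowest of all genes tested (rank 7). The call depended on the libraries used: *Ccdc42* was called under 10 of 17 alternatives, and it was not called without control replicate 2 or 3, without cKO replicate 1, 3 or 4, without the filter, or with the replicate number as a block. Its log2 fold change stayed between −1.44 and −1.17 over all 17.

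**Figure D2:**
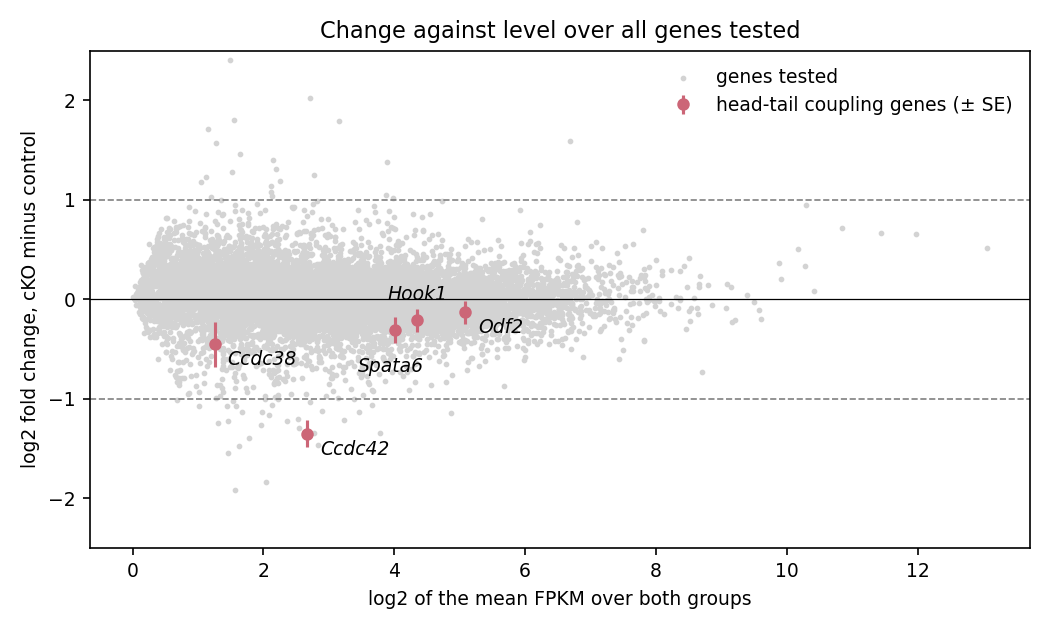
Log2 fold change (cKO minus control) against the log2 of the mean FPKM for the genes tested (grey) and the 5 head-tail coupling genes among them (red, ± SE), with dashed lines at a 2-fold change. *Ccdc42* lies at −1.35 and the other 4 between −0.45 and −0.13, and 1 gene lies beyond the vertical axis.

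*Ccdc38* encodes a coiled-coil partner of CCDC42 that binds the manchette. It had 2.00, 2.63, 3.85 and 2.66 FPKM in control and 2.61, 2.20, 1.61 and 1.57 FPKM in cKO libraries. The groups overlapped, since the lowest control library lay below both of the higher cKO libraries. The means were 2.79 ± 0.771 and 2.00 ± 0.499 FPKM, with a log2 fold change of −0.45 (standard error 0.252). It was −0.59 without control replicate 1, the lowest of the control values, and −0.29 without control replicate 3, the highest. The end of *Ccdc38* shares 1299 bases with *Snrpf*, a spliceosome gene on the opposite strand that had 20.1 FPKM in control and 32.9 FPKM in cKO libraries. *Snrpf* was at 5.49 FPKM in control replicate 1 and at 14.9 FPKM or more elsewhere, and without a stated use of strand the reads of the pair cannot be told apart over the shared bases.

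*Odf2* encodes a main protein of the outer dense fibres that is also a component of centriole appendages in other cells. It had 33.2, 35.9, 41.5 and 31.5 FPKM in control and 36.0, 32.5, 31.8 and 29.2 FPKM in cKO libraries, from 4318 to 6920 fragments each. The genotypes overlapped over most of their range, with means of 35.5 ± 4.38 and 32.4 ± 2.80 FPKM. The log2 fold change was −0.13 (standard error 0.106), a difference similar in size to its error, although *Odf2* had the most fragments of the 10 genes, and it was −0.16 without control replicate 1. Its counted length of 9919 bases covers the exons of 25 annotated transcripts, so a shift between isoforms could not be seen in these values.

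*Odf1*, by contrast, was close to the limit of detection. It encodes a small heat shock-like protein of the outer dense fibres, needed for a tight join of head and tail. Control replicates 1 to 4 had 6, 8, 0 and 0 fragments and cKO replicates 1 to 4 had 4, 4, 10 and 8 fragments. That is 0.414 and 0.399 FPKM and 2 libraries at 0 in control, where 3 fragments would be worth 0.174 and 0.166 FPKM, against 0.187 to 0.537 FPKM in cKO libraries. No fold change is given, because it rests on the libraries at 0.

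*Spata6*, needed to build the connecting piece, had 17.6, 18.4, 19.7 and 15.5 FPKM in control and 17.9, 13.6, 13.9 and 12.3 FPKM in cKO libraries. In cKO replicates 2 to 4 the value lay below all 4 controls, and cKO replicate 1 lay among them. The means were 17.8 ± 1.79 and 14.4 ± 2.45 FPKM, with a log2 fold change of −0.31 (standard error 0.137) that became −0.42 without cKO replicate 1 and stayed at −0.31 without control replicate 1. A pair of processed pseudogenes lie within *Spata6* on the other strand, and one of them, *Gm12960*, had 30.3 and 28.7 FPKM. *Pmfbp1*, whose protein joins SUN5 to SPATA6 in the connecting piece, had 1, 2, 1 and 7 fragments in control and 2, 4, 5 and 1 in cKO libraries. Its sums of 11 and 12 fragments show no difference that this depth could resolve, and the sign of its log2 fold change turned in 4 of the leave-one-out settings.

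The SUN genes of the group were both below 1 FPKM, and *Spag4* lay above *Sun5* in every control library. *Sun5*, which anchors the coupling apparatus in the nuclear envelope, had 3, 1, 0 and 3 fragments in control and 0, 0, 1 and 4 fragments in cKO libraries, 7 and 5 in all, and no fold is given. *Spag4*, which encodes SUN4 of the manchette-facing nuclear envelope, had 0.869, 0.594, 0.371 and 0.278 FPKM in control and 0.534, 0.441, 0.307 and 0.488 FPKM in cKO libraries, from 22 to 55 fragments. The control values spread over a wider range than the cKO values and enclosed them. Its log2 fold change was −0.14 (standard error 0.332), and 0.10 without control replicate 1.

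*Hook1* encodes a microtubule linker that is mutated in mice with abnormally shaped sperm heads. It had 25.4, 19.0, 20.8 and 22.0 FPKM in control and 21.9, 18.0, 17.9 and 17.2 FPKM in cKO libraries. As with *Spata6*, cKO replicate 1 lay within the control range and the other cKO libraries below it. The means were 21.8 ± 2.72 and 18.8 ± 2.11 FPKM, and the log2 fold change was −0.21 (standard error 0.117), −0.29 without cKO replicate 1 and −0.14 without control replicate 1. *Oaz3*, an antizyme of spermatids whose loss leaves sperm without heads, had 0.847, 0.676, 0.813 and 0.734 FPKM in control and 0.763, 0.796, 0.685 and 0.545 FPKM in cKO libraries, from 40 to 64 fragments. The groups overlapped and the log2 fold change was −0.13 (standard error 0.125), or −0.085 without control replicate 1. Both ends of *Oaz3* overlap genes of the opposite strand, *Tdrkh* (2255 bases, 24.5 and 22.1 FPKM) and *Mrpl9* (598 bases, 17.4 and 17.7 FPKM), so that these few fragments cannot be assigned to *Oaz3* with certainty.

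Set beside the background of all genes tested, the 5 members in the fit had a median log2 fold change of −0.31, against 0.01 over all genes tested. All 5 had a log2 fold change below 0, where 48.0% of the genes tested had one. *Ccdc42* alone of the 5 had groups that did not overlap, where 2.59% of genes were lower without overlap. Without cKO replicate 1 this held for *Ccdc42*, *Spata6* and *Hook1*, where 7.82% of genes did. These counts come from the contrast the genes were chosen with and from members that passed the filter, and nothing is read from them.

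The pachytene marker sum was lower, though overlapping, in the cKO libraries, and the 5 genes were set against it as a ratio, a measure added after these values were seen. Of the 13 markers, 10 had a lower cKO mean and 3 a higher one. Among the lower ones, log2 fold changes were −0.98 for *Adam3*, −0.73 for the lactate dehydrogenase *Ldhc*, −0.40 for *Piwil1* and −0.09 for the synaptonemal complex gene *Sycp1*. *Adam3* changed most, with 4.25 to 8.79 FPKM in control and 2.28 to 3.81 FPKM in cKO libraries, without overlap. The higher ones were the recombination gene *Meiob* (0.69), *Spag6* (0.43) and the histone gene *Hist1h1t* (0.96). *Spag6* and *Hist1h1t* stayed under 1 FPKM in every library (control means 0.579 and 0.279 FPKM), yet count fully where each marker weighs the same. The median over the list was −0.14. A few abundant genes carried the sum: *Ldhc*, *Hspa2* and *Piwil1* made up 76.3% of it in control libraries and 94.3% of its difference between genotypes, and *Ldhc* alone made up 59.3% of that difference. As a percentage of the summed pachytene markers, *Ccdc42* was at 0.671, 0.621, 0.569 and 0.675% in control and 0.279, 0.346, 0.274 and 0.407% in cKO libraries. The groups did not overlap on this scale either, and the ratio of the means was 0.515. Against the sum, the ratios of the other 4 were 0.931 for *Ccdc38*, 1.06 for *Spata6*, 1.12 for *Hook1* and 1.21 for *Odf2*, all with overlapping groups. These are ratios of means, and those that follow come from mean log2 values. On that measure the sum gave 0.509 for *Ccdc42*, 0.953 for *Ccdc38*, 1.065 for *Spata6*, 1.14 for *Hook1* and 1.21 for *Odf2*. The ratios depended on how the markers were weighed. With each marker weighing the same (the mean of log2(FPKM + 0.1) over the 13), the ratios were 0.410 for *Ccdc42*, 0.767 for *Ccdc38*, 0.857 for *Spata6*, 0.918 for *Hook1* and 0.973 for *Odf2*, and the groups did not overlap for *Ccdc42* and *Spata6*. Without *Ldhc* in the sum they were 0.458, 0.857, 0.958, 1.03 and 1.09 in the same order. The direction for *Spata6*, *Hook1* and *Odf2* thus turned with the weights, whereas *Ccdc42* stayed below 1 and without overlap on each of these 3 scales. *Ccdc42* was chosen by its difference in this contrast and the ratios use the same values, so nothing is read from its separation. Markers of some somatic cells also moved with genotype. The macrophage sum was higher in every cKO library than in any control (median log2 fold change of its 6 markers 0.60), and the medians were 0.50 for 5 endothelial, 0.55 for 7 Leydig cell and 0.27 for 5 peritubular markers, whose sums overlapped. For the 10 Sertoli cell markers the median was 0.10, 4 of them had a lower cKO mean, and the sum overlapped. The part of somatic cells in these values was not tested.

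**Figure D3:**
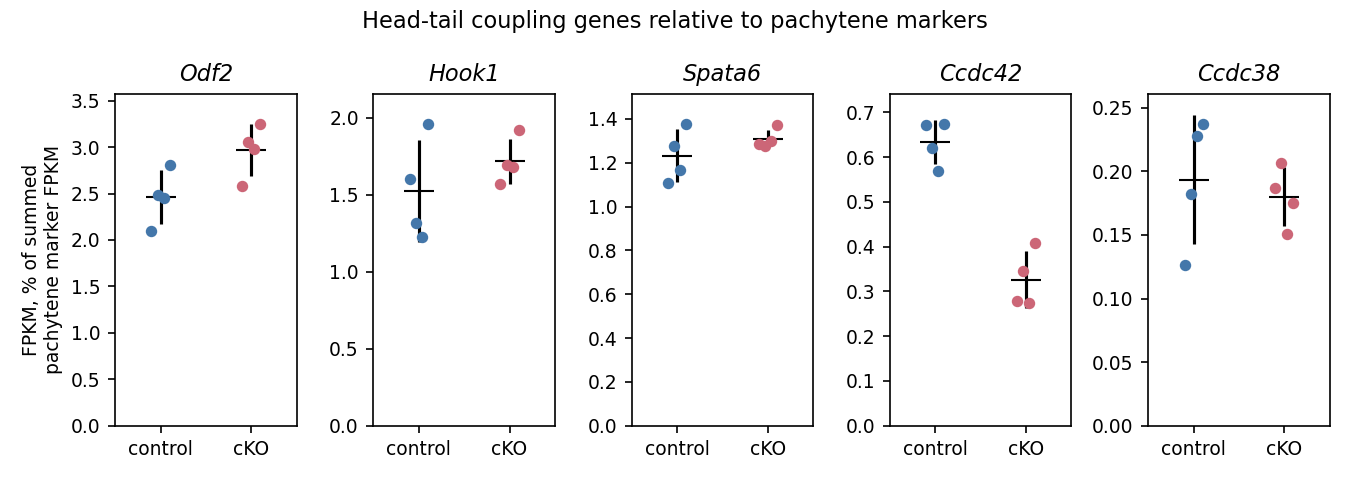
FPKM of the 5 genes above 1 FPKM as a percentage of the summed FPKM of 13 pachytene markers in the same library, for control (blue) and cKO (red), with bars for the mean and SD and each vertical axis starting at 0. *Ccdc42* separates the genotypes (0.634 ± 0.0499 against 0.326 ± 0.0631%), whereas the other 4 overlap on this scale.

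How the 5 genes varied together was described by the deviations of the 8 libraries from their genotype means. These are correlations over libraries that differ in depth and in their marker sums. The part of those differences was not tested, and the correlations carry no test. *Odf2* and *Spata6* moved most alike (Pearson r = 0.874, n = 8 libraries), followed by *Ccdc38* and *Odf2* (r = 0.83) and *Ccdc38* and *Spata6* (r = 0.668). *Ccdc42* was more loosely tied to the others, with r = 0.458 to *Spata6*, 0.442 to *Hook1*, 0.361 to *Odf2* and 0.176 to its partner *Ccdc38*. *Hook1* deviated almost independently of *Odf2* (r = 0.0714) and *Ccdc38* (r = 0.0427).

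The genes that correlated most with *Ccdc42* over all 8 libraries, the difference between genotypes included, were *Pole* (a DNA polymerase catalytic subunit, r = 0.989), *Cdkl1* (a kinase, r = 0.974), *Dlec1* (r = 0.969), *Cfap70* (a flagellar protein, r = 0.961) and *Erich2* (r = 0.958). Such an r compares the shape of a profile and not its level or the size of a change. Their log2 fold changes were −0.24, −0.67, −0.70, −0.92 and −1.06. By the deviations within genotypes a separate set came first: *Hist2h2ac* (r = 0.996), *1700037C18Rik* (0.973), *Zbtb49* (0.955), *Etfb* (0.952) and *Nme7* (0.950). These were the highest of 12141 values over 8 libraries, and no gene was in both sets.

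Other genes of the same structures, which were not members, were tested in the fit across all genes. Of 66 listed genes in the table, 46 passed the filter, and 0 were called, with 0 at a limma adjusted p below 0.05 and 0 called with voom on recovered fragments. At an unadjusted p below 0.05, 10 were lower and 2 higher. That is 21.7% lower, against 5.0% of all genes tested. This count moved with single libraries, to 18 without control replicate 1 (39.1%, against 5.90% of all genes), 21 without cKO replicate 1 (45.7%, against 6.58%) and 15 without control replicate 4 (33.3%, against 7.81%). It fell to 8 without cKO replicate 4 (17.4%, against 2.67%). It stayed at 10 without control replicate 2 or 3 and without cKO replicate 2 or 3. With array weights it was 24, where 9 were at an adjusted p below 0.05. Log2 fold changes were below 0 for 36 of the 46, against 48.0% of all genes tested, with a median of −0.19 against 0.01. The lists were chosen with earlier results of these data known, so nothing is read from these shares. The part of the lower, though overlapping, pachytene marker sum in them was not tested.

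Of 8 tested genes of the head-tail coupling list, 7 had a log2 fold change below 0 (median −0.29) and 2 were lower at an unadjusted p below 0.05. *Ccdc113*, a coiled-coil protein of cilia, had 20.7, 25.0, 29.8 and 22.1 FPKM in control and 16.5, 13.2, 10.9 and 11.3 FPKM in cKO libraries. These groups did not overlap, yet the log2 fold change of −0.91 (standard error 0.158) did not pass (limma adjusted p = 0.127). *Cfap52*, a ciliary protein named after its values were seen, was at 15.7 and 8.81 FPKM (log2 fold change −0.85, adjusted p = 0.178), also without overlap. The most abundant gene of the list, the testis bromodomain gene *Brdt*, had 42.9 and 35.1 FPKM (−0.31, adjusted p = 0.472), and the centriolar gene *Cntrob* had 14.8 and 15.5 FPKM (0.08, adjusted p = 0.902). *Dnah6*, an axonemal dynein heavy chain chosen after its values were seen, was outside the fit because its cKO mean was below 1 FPKM. Its values were 2.01, 1.99, 4.03 and 2.60 FPKM in control and 1.00, 1.14, 0.797 and 0.920 FPKM in cKO libraries, without overlap.

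All 22 genes of the manchette and intramanchette transport list were tested, and 18 had a log2 fold change below 0 (median −0.19), with 5 lower and 1 higher at an unadjusted p below 0.05. *Meig1*, which works at the manchette, had 187 and 164 FPKM (log2 fold change −0.17, adjusted p = 0.810), and *Ccdc181*, a partner of HOOK1, had 50.0 and 35.3 FPKM without overlap (−0.51, adjusted p = 0.183). The chaperone *Hspb1* was the gene with a higher cKO value at that unadjusted threshold, at 106 and 150 FPKM (0.54, adjusted p = 0.413). *Rimbp3*, another manchette partner of HOOK1 and chosen after its values were seen, had 4.36 and 2.28 FPKM (−0.89, adjusted p = 0.150).

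Of the dense fibre and fibrous sheath list, 8 of 17 genes were tested, 6 with a log2 fold change below 0 (median −0.26) and 1 lower at an unadjusted p below 0.05. *Ropn1l*, of the fibrous sheath, had 261 and 191 FPKM (−0.41, adjusted p = 0.654), *Odf4* had 43.0 and 35.8 FPKM (−0.26, adjusted p = 0.610) and *Odf2l* had 9.72 and 8.19 FPKM (−0.25, adjusted p = 0.498). The SUN and KASH list, which holds the proteins that link nucleus and cytoskeleton, had 4 of 7 tested genes below 0 (median −0.08), with 1 lower and 1 higher at an unadjusted p below 0.05. *Ccdc155*, encoding the meiotic protein KASH5, had 76.0 and 69.8 FPKM (−0.10, adjusted p = 0.909) and *Sun1*, its partner at meiotic telomeres, had 27.3 and 25.8 FPKM (−0.08, adjusted p = 0.844). *Sun2* had 22.3 and 26.6 FPKM and was higher in every cKO library (0.25, adjusted p = 0.429). The lower gene was *Sun3*, named after its values were seen, at 4.21 and 2.28 FPKM with overlapping groups (−0.79, adjusted p = 0.287). Of the 4 other coiled-coil relatives, *Mns1* had 24.0 and 20.2 FPKM (−0.25, adjusted p = 0.391) without overlap, whereas *Cfap73* lay below the filter at 0.410 and 0.356 FPKM.

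**Figure D4:**
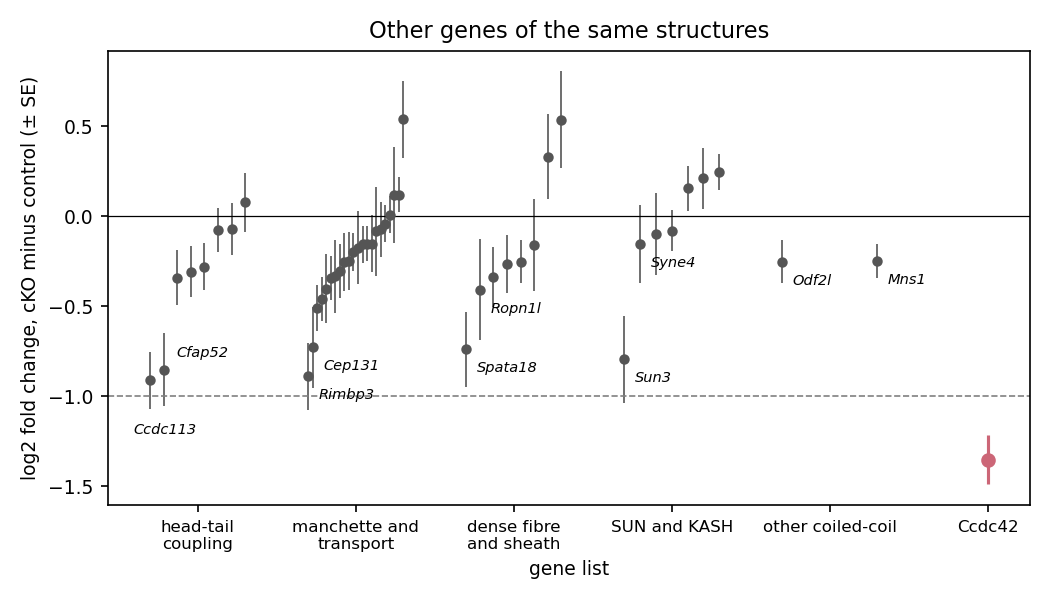
Log2 fold change (cKO minus control, ± SE) of each tested gene in 5 lists of related genes (grey) beside *Ccdc42* (red), with the dashed line at a 2-fold lower level in cKO. *Ccdc113* at −0.91 and *Rimbp3* at −0.89 are the lowest of the listed genes, *Odf2l* stands in both the dense fibre and the coiled-coil list, and 0 of the 46 genes were called.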

How the data were processed

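RNA of 8 whole-testis libraries was analysed, 4 per genotype, grouped by the labels. Per the labels, libraries were made with a SMARTER mRNA-seq kit. The authors deposited FPKM values made with Novomagic from paired-end reads. The submitters' processing notes name GRCm38 (mm10), and the aligner, the counter and the use of strand are not given in the sources used here. Gene coordinates were compared with GENCODE vM21: 99.8% of genes were present, of which 98.3% had the same start and end. FPKM multiplied by gene length gave whole fragments for 100% of values (tolerance 0.02).

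Protein-coding genes were kept if their mean exceeded 1 FPKM in each genotype (12141 genes). Values were moved to log2 after adding 0.1 FPKM, and cKO was compared with control by limma 3.58.1 (R 4.3.3; moderated test, prior variance following the mean level, no covariates). A call required a log2 fold change beyond 1 in size, with p adjusted by Benjamini-Hochberg below 0.05. The authors' count test was replaced by a fit on FPKM, the measure they deposited, and voom on the recovered fragments was an alternative. The paper's own test, DESeq2 with the same thresholds, called more genes than this fit. The fit was checked on simulated data. The members and gene lists were chosen with earlier results of these data known. Named were all members, the 3 genes with the highest mean FPKM of each list and any list gene with an adjusted p below 0.05, the 5 genes most correlated with *Ccdc42* by each of 2 measures, and genes overlapping a member. Motifs were searched in RefSeq promoters. Alternatives were pseudocounts, filters, scalings, a replicate block, array weights, voom and each library left out. The labels give tamoxifen days and an RNA kit that differ from those in the methods text. Figures were drawn with matplotlib 3.10.9.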

Additional observations from a re-analysis of the deposited data

Results flagged for a closer look

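Among 20 sets of 4 values (10 genes in 2 genotypes), 2 held a library far from the other 3, where chance gives about 1 in 20 sets. *Hook1* was at 21.9 FPKM in cKO replicate 1 and at 17.2 to 18.0 FPKM in the other cKO libraries. *Pmfbp1* was at 0.119 FPKM in control replicate 4, which is 7 fragments against 1 or 2 in the other controls.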

How the results depend on the processing

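The 2 calls over all genes stayed 2 with a pseudocount of 1 or 0.01, with a filter at 0.1 FPKM and with voom on recovered fragments. They became 0 without a filter, 1 after centring on the autosomal median and 1 after rescaling to TPM, and 57 (13 higher, 44 lower) with array weights, and the cause was not tested. Leaving out each library in turn gave 0 to 3 calls: 0 without control replicate 2 or 3 or cKO replicate 1, 3 or 4, 1 without control replicate 4, 2 without control replicate 1 and 3 without cKO replicate 2. Of the listed genes that are not members, 0 were called under every alternative other than array weights, where 3 were called (*Ccdc113*, *Cfap52* and *Sun3*).

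With the replicate number as a block, 0 genes were called over all genes and 0 among the listed ones. Of the listed ones, 15 were lower (32.6%, against 6.81% of all genes) and 3 higher at an unadjusted p below 0.05. The weights of the pachytene markers, chosen after seeing the data, are compared beside the ratios. Deviations of same-numbered libraries correlated at 0.288, 0.131, 0.0757 and 0.406, all above 0 and below 0.1 in only 1 of 4 pairs. The paper states that the controls were littermates that received the same treatments. The labels state no litter and no pairing, and the main fit used no block. Whether the numbers stand for pairs was not tested. Of 150 member log2 fold changes under alternatives, 149 moved by less than the spread between libraries, and that of *Odf1* moved further with a pseudocount of 0.01, which sets the value of its libraries at 0. For *Odf1*, *Sun5*, *Pmfbp1*, *Spag4* and *Oaz3*, depth limits what can be seen.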
